A study of Mus musculus with 12 samples.

Results

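The genes described here encode 10 glycoproteins and proteoglycans of cartilage: Cilp, Cilp2, Comp, the matrilins Matn1, Matn2, Matn3 and Matn4, and Ucma, Snorc and Chad. They are 10 of 22180 genes that the array reads through at least 1 unshared probe set. The probe set of each gene was chosen by its mean log2 value over the 12 arrays, the highest being taken, but each gene had 1 probe set of its own and shared none with another gene, so this choice selected nothing. The set of genes was drawn up with earlier results of these arrays known, Cilp among them, so their differences between genotypes are a description of these mice and not independent evidence about the set.

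Sternal cartilage without the xiphoid process was taken from 4-wk-old C57BL/6J mice. The 6 QT mice, called TIMPless in the sample labels, lack all 4 tissue inhibitors of metalloproteinases in every tissue: their Timp1 allele carries stop codons, and parts of Timp2, Timp3 and Timp4 are deleted. The 6 WT mice carry intact Timp genes. The labels name no treatment difference, and each mouse gave 1 Affymetrix Mouse Gene 2.0 ST array. Values are log2 intensities after robust multiarray averaging (RMA), which gives all arrays nearly the same distribution, so 1 unit is a 2-fold difference. Array medians lay between 6.15 and 6.20 and array maxima between 13.55 and 13.66.

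Cartilage matrix is built on collagen II fibrils and on aggrecan held by hyaluronan. A layer of adaptor proteins joins these networks. Matrilins and Comp form oligomers that bind collagens and aggrecan, and Chad binds collagen and cell surface integrins. Cilp is a secreted glycoprotein best known from the middle zone of articular cartilage, where it binds TGF-β. Metalloproteinases, which TIMPs inhibit, cut many of these proteins, but an array reads only their RNA.

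Cilp and its paralog Cilp2 were lower in every QT mouse than in any WT mouse, Matn4 was higher in QT cartilage, and the other 7 genes did not pass both thresholds. Comp, among these 7, was also lower in every QT mouse than in any WT mouse, at a fold of 1.43. For Cilp, Cilp2 and Matn4, which passed both, the sequence upstream of the start sites is given here from RefSeq (mouse build GRCm38.p6). It runs 5′ to 3′, as 250 bases before the start and the first transcribed base, in capitals. Matn4 has 2 annotated starts.
Cilp, chr9:65264930-65265180, plus strand: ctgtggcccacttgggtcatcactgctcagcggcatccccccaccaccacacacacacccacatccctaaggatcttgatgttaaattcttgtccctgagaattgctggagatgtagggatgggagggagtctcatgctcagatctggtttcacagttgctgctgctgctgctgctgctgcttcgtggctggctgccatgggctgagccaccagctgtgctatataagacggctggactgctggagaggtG
Cilp2, chr8:69887392-69887642, minus strand: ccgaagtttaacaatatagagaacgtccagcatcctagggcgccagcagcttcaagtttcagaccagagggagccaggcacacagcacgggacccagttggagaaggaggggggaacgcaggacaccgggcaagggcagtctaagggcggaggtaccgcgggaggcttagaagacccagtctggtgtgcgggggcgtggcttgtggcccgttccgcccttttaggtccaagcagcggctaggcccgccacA
Matn4 upstream start, chr2:164405160-164405410, minus strand: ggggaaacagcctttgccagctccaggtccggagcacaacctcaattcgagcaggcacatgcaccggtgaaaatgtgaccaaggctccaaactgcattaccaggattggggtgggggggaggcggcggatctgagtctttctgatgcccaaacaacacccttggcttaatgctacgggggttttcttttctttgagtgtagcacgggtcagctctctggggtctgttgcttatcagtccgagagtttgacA
Matn4 downstream start, chr2:164404818-164405068, minus strand: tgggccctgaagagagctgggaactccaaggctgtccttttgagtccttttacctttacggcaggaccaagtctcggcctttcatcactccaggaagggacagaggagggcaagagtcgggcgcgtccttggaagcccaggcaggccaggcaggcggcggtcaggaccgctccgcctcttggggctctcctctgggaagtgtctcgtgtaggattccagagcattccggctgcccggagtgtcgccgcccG

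The windows of 300 bases (250 before and 50 from the start) were searched on both strands for the SOX motifs ACAAAG and ACAATG, the AP-1 motif TGANTCA, the GLI motif ACCACCC and the TATA motif TATAAA. Among all 32851 such windows, 18.7% held ACAAAG, 12.6% ACAATG, 7.81% TGANTCA, 4.61% ACCACCC and 13.6% TATAAA. None of these exact letters occurred in the windows of Cilp, Cilp2, Matn4, Matn1 or Matn3. Variants were not searched, so the tatataag near the start of Cilp, in the sequence above, was not counted as TATA. The window of Chad held TATAAA 28 bases before the start, and that of Ucma held TGANTCA 23 bases after it. The GC content was 55.7% for Cilp, 61.3% for Cilp2 and 52.7% and 64.0% for the upstream and downstream Matn4 windows, beside a median of 52.7% over all windows.

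The Timp genes were checked first. Timp2 lay between 8.83 and 9.35 in QT mice and between 10.51 and 10.83 in WT mice, Timp3 between 9.08 and 9.89 in QT and 10.59 and 11.18 in WT, and Timp4 between 5.75 and 6.16 in QT and 6.54 and 8.15 in WT. Timp1 overlapped, at 8.61 to 9.67 in QT and 9.54 to 10.33 in WT. Where the probes lie in the altered alleles was not examined. WT replicates 5 and 6 stood apart from the rest in sex-linked genes: Xist, which silences an X chromosome in females, read 5.34 and 5.17 there, against 11.91 to 12.07 in QT mice and 12.08 to 12.22 in WT replicates 1 to 4. The Y-linked gene Eif2s3y read 9.20 and 9.06 in them, against 3.50 to 3.81 in QT mice and 3.70 to 3.99 in WT replicates 1 to 4. Sex is not given in the labels, and differences of several of the 10 genes are also given without these mice.

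Genotypes were compared with limma over all 41345 probe sets, and a gene was called at an adjusted p under 0.05 with a fold of at least 1.5. Of the 10 genes, 2 were called lower in QT cartilage (Cilp and Cilp2) and 1 higher (Matn4). Over all 22180 genes, 1.43% were called lower and 0.875% higher. With the adjusted p alone, at any fold, 4 of the 10 were lower and 1 higher, beside 3.24% and 1.69% of all genes. In 3 of the 10 (Cilp, Cilp2 and Comp) all 6 QT mice lay below all 6 WT mice, and in none did all QT mice lie above, beside 3.02% and 1.9% of all genes. The median difference, QT minus WT, was -0.40 over the 10 and -0.0017 over all genes on the log2 scale. As the genes were picked with these differences known, nothing is read from the counts.

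**Figure D1:**
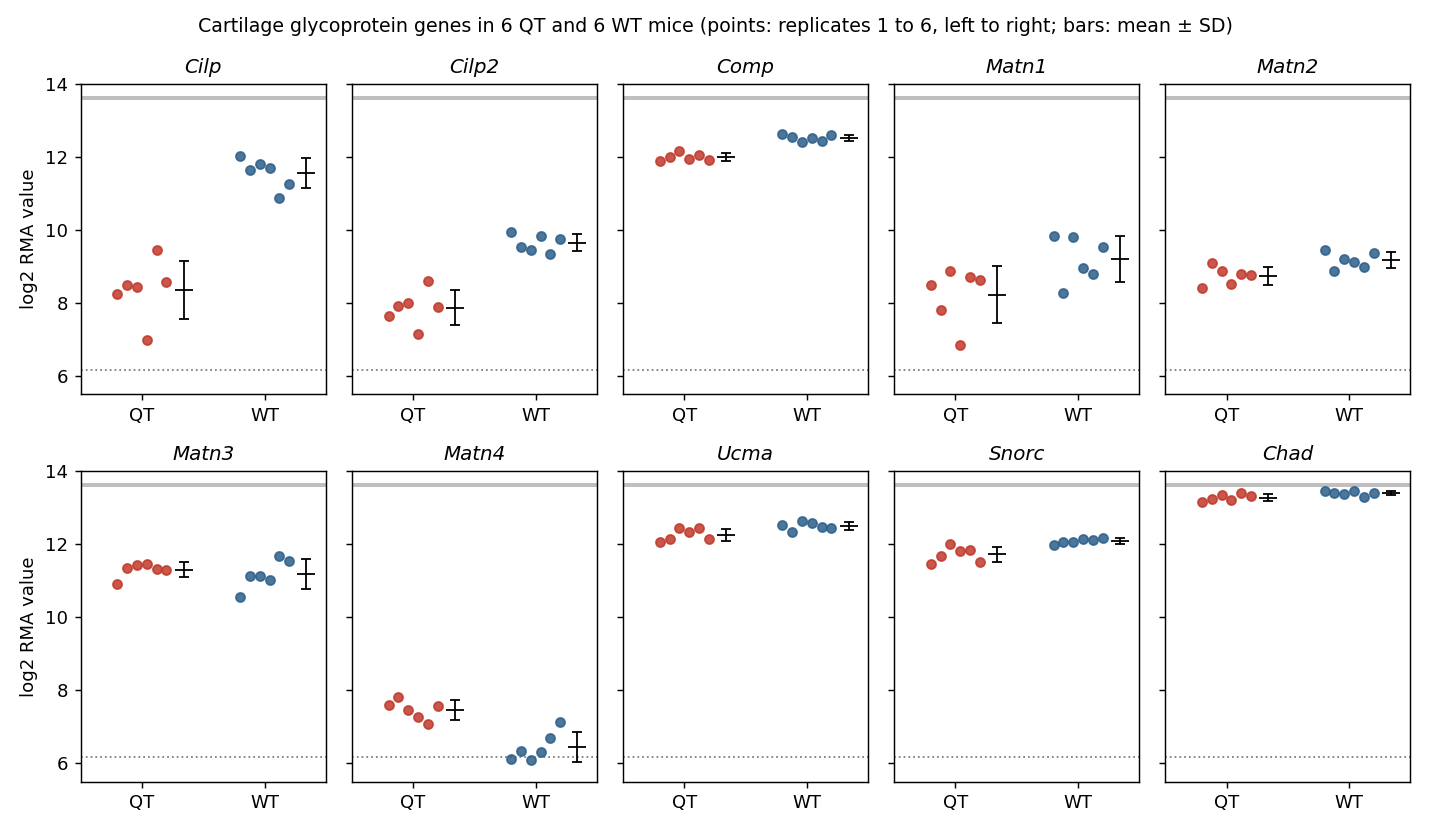
Log2 RMA values (y axis) of the 10 genes in 6 QT mice (red) and 6 WT mice (blue), replicates 1 to 6 from left to right, with the mean ± SD in black. The grey band is the range of array maxima and the dotted line the mean array median. Cilp, Cilp2 and Comp show no overlap between genotypes, Matn4 is higher in QT mice, and Chad lies just under the maximum.

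Cilp read 8.25, 8.48, 8.43, 6.98, 9.46 and 8.56 in QT replicates 1 to 6, against 12.03, 11.64, 11.81, 11.69, 10.88 and 11.26 in WT replicates 1 to 6. The groups did not overlap: the highest QT mouse, replicate 5, stayed below the lowest WT mouse, also replicate 5. The mean was 8.36 ± 0.80 in QT and 11.55 ± 0.41 in WT (SD, n = 6 each). Cilp was thus 9.14-fold lower in QT cartilage, a log2 difference of -3.19 (SE 0.33, 95% interval -3.90 to -2.49, limma adjusted p = 0.000288). WT replicates 5 and 6, the mice with low Xist, read lowest among the WT mice. Without them the difference was -3.43 (limma adjusted p = 0.0008004). An exact permutation test of this gene alone, 2-sided, gave p = 0.002165, the smallest that 6 against 6 mice allow.

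Cilp2 encodes a secreted protein with the same overall build as Cilp. It read 7.64, 7.92, 8.01, 7.14, 8.59 and 7.89 in QT replicates 1 to 6, against 9.95, 9.54, 9.46, 9.84, 9.34 and 9.75 in WT replicates 1 to 6. As with Cilp, QT replicate 5 was the highest QT mouse, WT replicate 5 the lowest WT mouse, and the groups did not overlap. The mean was 7.87 ± 0.47 in QT and 9.65 ± 0.24 in WT (SD, n = 6 each), a 3.44-fold lower level in QT cartilage (log2 difference -1.78, SE 0.20, 95% interval -2.21 to -1.36, limma adjusted p = 0.000421; exact permutation p = 0.002165). Without WT replicates 5 and 6 the difference was -1.83 (limma adjusted p = 0.00263).

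The array values of the 2 paralogs differed in how far they fell. Their probes are different, so the level of one cannot be set against the other, but the gap between them within an array can be compared between genotypes. Cilp minus Cilp2 ranged over -0.16 to 0.87 in QT mice (0.50 ± 0.35) and 1.51 to 2.35 in WT mice (1.91 ± 0.33, SD, n = 6 each). No QT gap reached a WT gap, and the difference was -1.41 (exact permutation test, 2-sided, p = 0.002165). It was -1.6 without WT replicates 5 and 6. This comparison was chosen with earlier results known, and the unequal differences of the 2 genes already set the gap. Its p is therefore a description of these mice and not independent evidence. Whether the 2 probe sets respond alike to a change in RNA was not tested, so the gap describes array values only.

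The paralogs were also set against each other within each genotype. QT replicate 4 was the lowest QT mouse and replicate 5 the highest in both genes. Across the 6 QT mice, Pearson's r was 0.97 (exact permutation p = 0.0111) and Spearman's rho 0.77 (exact permutation p = 0.103), and r was 0.74 without QT replicates 4 and 5. Across the 6 WT mice, r was 0.59 (exact permutation p = 0.231) and rho 0.6 (exact permutation p = 0.242). Of 90 such relations, each between 2 of the 10 genes within 1 genotype, 7 had an unadjusted Pearson p under 0.05 by the exact permutation test and 0 passed after Benjamini-Hochberg adjustment (lowest adjusted p = 0.229).

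**Figure D2:**
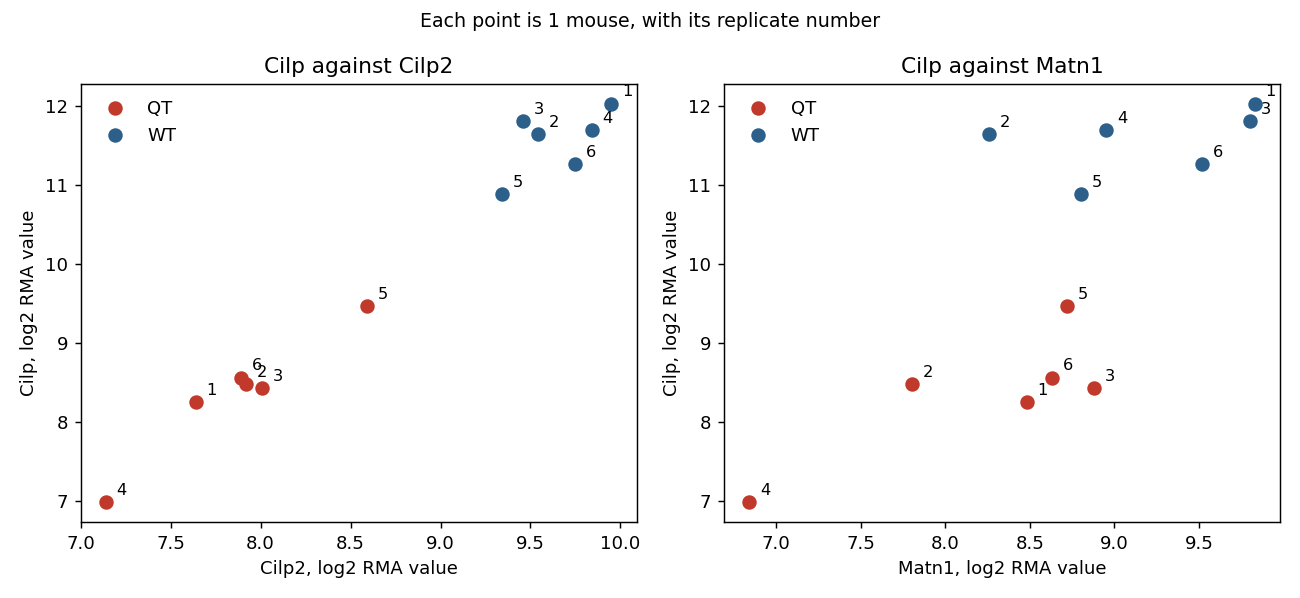
Log2 RMA values of Cilp (y axis) against Cilp2 (left) and against Matn1 (right), QT mice in red and WT mice in blue, each point 1 mouse with its replicate number. Cilp separates the genotypes in both panels, Cilp2 does too, Matn1 does not, and QT replicate 4 is lowest in all 3 genes.

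Comp is the thrombospondin family member of cartilage, a pentamer that binds collagens and is altered in human pseudoachondroplasia. It read 11.89, 12, 12.17, 11.95, 12.04 and 11.92 in QT replicates 1 to 6, against 12.62, 12.54, 12.39, 12.52, 12.42 and 12.59 in WT replicates 1 to 6. The spread was small and the groups did not overlap, with 12.17 the highest QT and 12.39 the lowest WT value. Comp averaged 11.995 ± 0.10 in QT and 12.51 ± 0.09 in WT (SD, n = 6 each), a log2 difference of -0.52 (SE 0.07, 95% interval -0.67 to -0.37, limma adjusted p = 0.00138). The fold of 1.43 was under the threshold, so Comp was not called. Without WT replicates 5 and 6 the difference was again -0.52 (limma adjusted p = 0.00726).

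Matrilins are oligomers of von Willebrand factor A domains that link collagen fibrils to proteoglycans. Matn1 and Matn3 are the cartilage-restricted pair, whereas Matn2 and Matn4 are made in many connective tissues. The 4 genes did not share a direction in QT cartilage.

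Matn4 read 7.59, 7.83, 7.46, 7.27, 7.07 and 7.58 in QT replicates 1 to 6, against 6.12, 6.34, 6.08, 6.32, 6.69 and 7.13 in WT replicates 1 to 6. WT replicate 6 lay just above QT replicate 5, and the genotypes were otherwise apart. The mean was 7.47 ± 0.27 in QT and 6.45 ± 0.40 in WT (SD, n = 6 each), 2.03-fold higher in QT cartilage (log2 difference 1.02, SE 0.18, 95% interval 0.63 to 1.41, limma adjusted p = 0.00792; exact permutation p = 0.00433). WT replicates 5 and 6, the mice with low Xist, were the 2 highest WT mice for Matn4, and without them the difference was 1.25 (limma adjusted p = 0.00114). In WT replicates 1 and 3 the value lay under the median of the array, so the size of the difference may not be exact.

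Matn1 read 8.48, 7.80, 8.88, 6.84, 8.72 and 8.63 in QT replicates 1 to 6, against 9.83, 8.26, 9.80, 8.95, 8.80 and 9.52 in WT replicates 1 to 6. Its SD was 0.77 in QT and 0.63 in WT (n = 6 each), wider than for the other matrilins, and 4 QT mice lay above the lowest WT mouse, replicate 2. The difference of -0.97 (SE 0.36, 95% interval -1.75 to -0.19) did not pass (limma adjusted p = 0.182). It was -0.69 without QT replicate 4 and -1.16 without WT replicate 2.

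Matn2 lay between 8.40 and 9.09 in QT mice (median 8.78) and between 8.88 and 9.45 in WT mice (median 9.16). The groups overlapped, and the difference of -0.43 (SE 0.13, 95% interval -0.71 to -0.15) did not pass (limma adjusted p = 0.0908). Matn3, which is altered in human multiple epiphyseal dysplasia, lay between 10.90 and 11.45 in QT mice (median 11.35) and between 10.55 and 11.68 in WT mice (median 11.14). WT replicates 5 and 6 held the 2 highest WT values of Matn3, at 11.68 and 11.55. The difference was 0.12 (SE 0.17, 95% interval -0.25 to 0.48, limma adjusted p = 0.767) and 0.34 without those mice (limma adjusted p = 0.266).

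Ucma, Snorc and Chad are strongly read on every array. Ucma encodes a vitamin K-dependent, Gla-rich protein of growth cartilage. It lay between 12.06 and 12.45 in QT mice (median 12.24) and between 12.32 and 12.64 in WT mice (median 12.51), with a difference of -0.24 (SE 0.09, 95% interval -0.43 to -0.06, limma adjusted p = 0.157). Snorc encodes a transmembrane chondroitin sulfate proteoglycan of chondrocytes. It lay between 11.46 and 12.01 in QT mice (median 11.75) and between 11.97 and 12.17 in WT mice (median 12.09), with 1 QT mouse, replicate 3, above the lowest WT mouse. Its difference of -0.37 (SE 0.09, 95% interval -0.56 to -0.17) passed the adjusted p (limma adjusted p = 0.0478) but not the fold threshold. With 1 mouse left out, the adjusted p missed 0.05 (0.0589 to 0.0972) in every fit but that without QT replicate 3 (0.0193), and it was 0.151 without WT replicates 5 and 6.

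Chad, chondroadherin, is a leucine-rich repeat protein. It read 13.14, 13.23, 13.34, 13.21, 13.39 and 13.32 in QT replicates 1 to 6, against 13.44, 13.41, 13.38, 13.44, 13.30 and 13.41 in WT replicates 1 to 6. The groups overlapped within a narrow range, and the difference of -0.13 (SE 0.06, 95% interval -0.26 to 0.01) did not pass (limma adjusted p = 0.319).

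**Figure D3:**
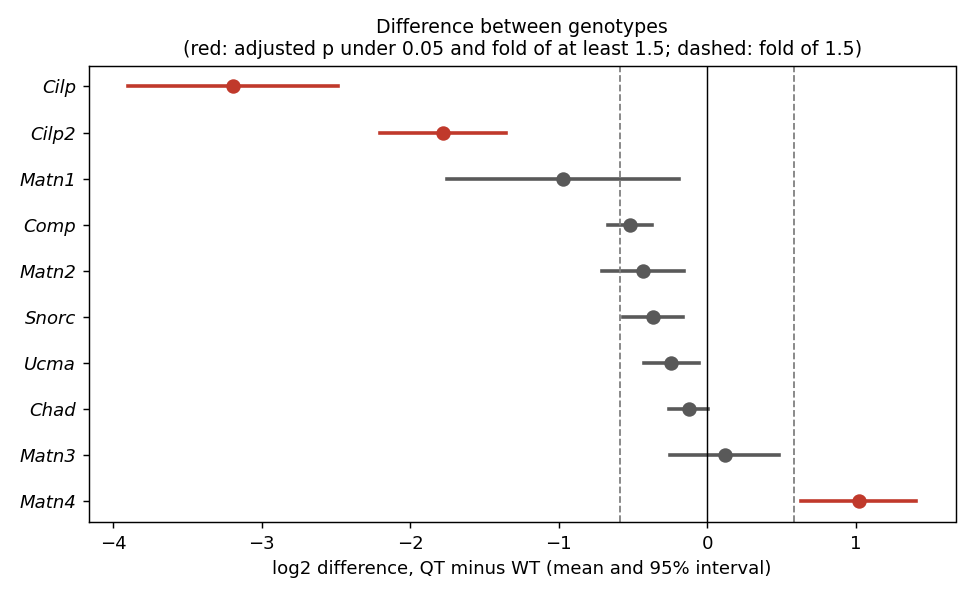
Log2 difference between genotypes (x axis, QT minus WT) for the 10 genes, ordered by size, with the 95% interval of the limma fit and dashed lines at a fold of 1.5. Cilp (-3.19), Cilp2 (-1.78) and Matn4 (1.02) are called (red), and the intervals of Matn3 and Chad span 0.

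Several of these values lay close to the top of the scale. Chad came within 0.16 of the array maximum, and at most 0.0218% of probe sets on any array lay above it. The smallest distance to the maximum was 0.92 for Ucma, 1.00 for Comp, 1.42 for Snorc, 1.6 for Cilp and 1.87 for Matn3. It was 3.68 or more for Cilp2, Matn1, Matn2 and Matn4. Whether the probes of the brightest genes were saturated was not tested.

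The same mice recurred at the ends of the ranges. QT replicate 1 was the lowest QT mouse in 6 of the 10 genes, and QT replicate 4 in 3 (Cilp, Cilp2 and Matn1). QT replicate 5 was the highest QT mouse in 4. WT replicate 1 was the highest WT mouse in 6 (tied with replicate 4 in Chad) and the lowest in 2, and WT replicate 5 was the lowest in Cilp, Cilp2 and Chad. The neutrophil marker mean, over 8 genes, was highest among QT mice in QT replicates 4 and 1, at 11.06 and 10.94. Other lists also had their ends in these mice. The erythroid mean was highest among QT mice in QT replicates 4 and 1, at 9.94 and 9.55. The cartilage core matrix mean was lowest among QT mice in QT replicate 1, at 10.81. The part of neutrophil-lineage or erythroid RNA in these values was not tested.

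The labelled tissue was checked against cartilage genes. Col2a1, the fibril-forming collagen of cartilage, averaged 12.83 ± 0.14 in QT and 12.85 ± 0.19 in WT (SD, n = 6 each), and Acan, encoding aggrecan, 12.57 ± 0.17 in QT and 12.61 ± 0.12 in WT. None of the 8 core matrix genes was called, and their median difference was -0.07. The largest were -0.18 for Hapln1, the link protein that fastens aggrecan (limma adjusted p = 0.334), and -0.18 for Col9a3, a collagen IX chain (limma adjusted p = 0.648). Relative to the mean of the core list, Cilp differed by -3.12, Cilp2 by -1.71 and Matn4 by 1.09, and all 3 were called. Comp differed by -0.45 on that scale and missed the adjusted p (limma adjusted p = 0.295), as did Snorc (0.602).

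Among 17 other matrix and chondrocyte-secreted genes, 0 were called higher and 3 lower, with a median difference of -0.31. The 3 were Vit, encoding vitrin, a von Willebrand factor A domain protein (-0.98, limma adjusted p = 0.00171), Mia, a small secreted chondrocyte protein (-0.79, limma adjusted p = 0.00132), and Chadl, the chondroadherin-like gene (-0.62, limma adjusted p = 0.0206). Without WT replicates 5 and 6, 2 of the 17 were called and the median difference was -0.32. Of the 4 thrombospondin relatives of Comp, 1 was called: Thbs1, a matricellular inhibitor of angiogenesis, averaged 11.43 ± 0.18 in QT and 12.16 ± 0.18 in WT (SD, n = 6 each; -0.73, limma adjusted p = 0.00221). The list's median difference was -0.20.

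None of the 3 SOX genes, the transcription factors of the chondrocyte programme, was called (median difference -0.23). Sox5 differed by -0.57 (limma adjusted p = 0.0173, fold under 1.5) and Sox9 by -0.23 (limma adjusted p = 0.332). Of 5 Adamts proteinases that can cut Comp, matrilins or aggrecan, 0 were called (median difference 0.11). Adamts12 differed by -0.44 (limma adjusted p = 0.00478, fold under 1.5) and Adamts4 by 0.31 (limma adjusted p = 0.557). Of 5 growth factor and receptor genes tied to Cilp, namely Tgfb1, Tgfb2, Tgfb3, Igf1 and Igf1r, 0 were called (median difference 0.03). Tgfb2 differed by 0.50 (limma adjusted p = 0.197) and Igf1 by 0.34 (limma adjusted p = 0.319).

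Of 7 hypertrophic chondrocyte genes, 6 were measured and 2 called lower: Ihh, the hedgehog ligand of the growth plate (-1.11, limma adjusted p = 0.00243), and Panx3, a channel protein of prehypertrophic cells (-0.80, limma adjusted p = 0.00284). The median difference of this list was -0.08. Of 7 cartilage surface and perichondrium genes, Gdf5, the joint growth factor, was called higher (1.18, limma adjusted p = 0.0106) and Sfrp5, a secreted Wnt antagonist, lower (-2.19, limma adjusted p = 0.00144). Their median difference was -0.28.

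**Figure D4:**
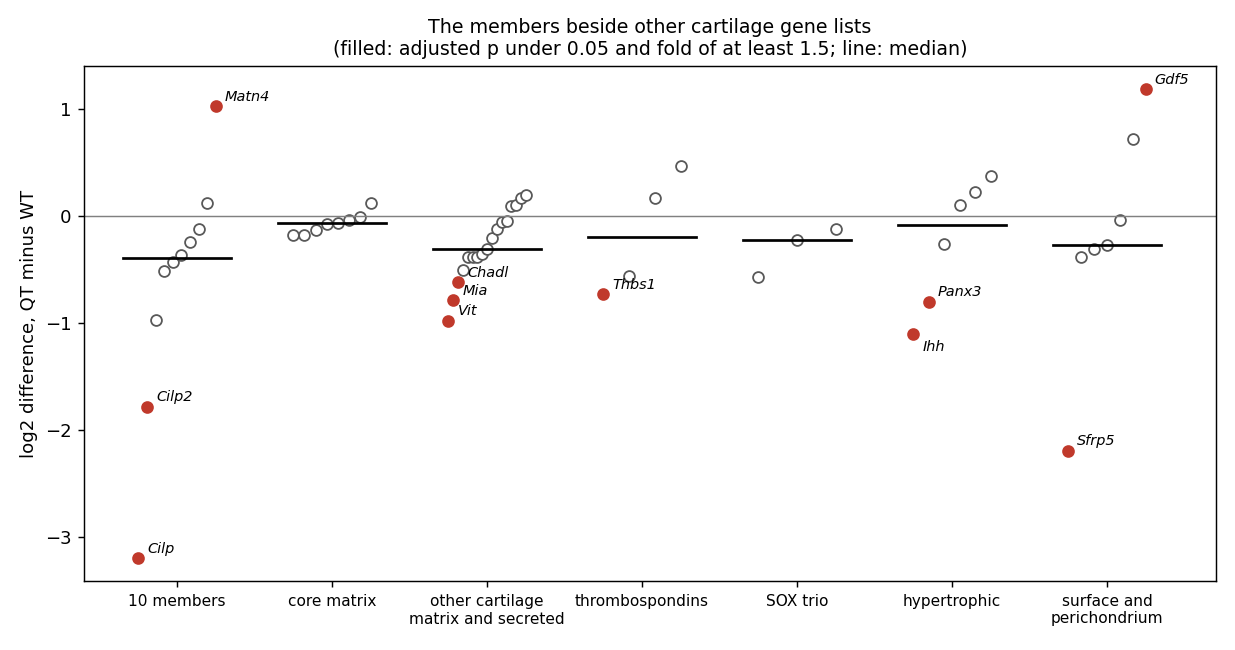
Log2 difference between genotypes (y axis, QT minus WT) for the 10 genes and for 6 other cartilage gene lists, each point a gene and each line a list median. Filled points were called. Cilp has the lowest value shown, and the core matrix genes lie close to 0.

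Markers of other cell types moved with genotype as well. The adipocyte list had 8 of 10 genes measured, 6 called lower and 0 higher (median difference -0.96), and its mean log2 value was 7.81 to 8.51 in QT mice and 8.70 to 9.78 in WT mice. Of 10 skeletal muscle genes, 7 were called lower and 0 higher (median difference -1.35), and the mean was 7.88 to 8.93 in QT and 9.05 to 10.55 in WT. Without WT replicates 5 and 6, 4 adipocyte and 0 muscle genes were called, with fewer arrays in the fit, and the median differences were -1.04 and -1.09. In bulk tissue, fewer cells of a type and less RNA per cell cannot be told apart.

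Cilp, Cilp2 and Matn4 were therefore also fitted with a marker mean as a covariate. The adipocyte mean had an r2 with genotype of 0.688 and the muscle mean of 0.681, so these fits have little room to separate them from genotype. With the adipocyte mean, the differences were -3.14 for Cilp (limma adjusted p = 0.118), -1.92 for Cilp2 (0.109) and 0.85 for Matn4 (0.436), and none was called. With the muscle mean they were -4.20 for Cilp (limma adjusted p = 0.00717), -2.32 for Cilp2 (0.0138) and 1.45 for Matn4 (0.118), and Matn4 was not called. With the tendon and fibroblast mean they were -2.69 for Cilp, -1.56 for Cilp2 and 1.01 for Matn4, all called.

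Of 10 tendon and fibroblast genes, 1 was called lower, Tnxb, encoding tenascin-X (-2.0, limma adjusted p = 0.000352), and the mean was 8.92 to 9.55 in QT and 9.31 to 9.70 in WT. Of 7 osteoblast and osteocyte genes, Dmp1 (1.58) and Mepe (1.57), both of mineralizing bone cells, were called higher. The others were not called and ran from -0.33 for Sost to 0.22 for Ibsp, and the list's median difference was 0.16. The mean of the list was 9.28 to 9.54 in QT and 8.30 to 9.22 in WT. The keratinocyte list had 6 of 7 genes measured and 3 called lower (Slurp1, Sbsn and Dmkn), with a mean of 6.04 to 6.55 in QT and 6.84 to 7.25 in WT. Of its 3 keratins measured, Krt14 averaged 5.81 ± 0.21 in QT and 5.70 ± 0.16 in WT and Krt1 5.67 ± 0.12 in QT and 5.63 ± 0.05 in WT (SD, n = 6 each), both under the lowest array median. Krt10 averaged 6.45 ± 0.15 in QT and 6.64 ± 0.12 in WT (SD, n = 6 each), above the highest array median, and its difference of -0.19 did not pass (limma adjusted p = 0.274).

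No gene was called among 6 chondrocyte markers (median difference -0.10), 8 neutrophil lineage genes (0.74), 5 endothelial genes (0.13) or the 2 measured of 6 erythroid genes (0.32). The neutrophil mean ranged over 8.35 to 11.06 in QT and 8.43 to 10.18 in WT. The endothelial mean was 8.88 to 9.63 in QT and 8.78 to 9.17 in WT, and the erythroid mean 6.78 to 9.94 in QT and 7.07 to 8.75 in WT. The part of any of these cell types in the Cilp, Cilp2 and Matn4 values was not tested beyond the fits above.

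For the 3 called genes, the genes with the nearest pattern were found by the root mean square difference over the 12 arrays after centring each gene. For Cilp, whose SD over the arrays was 1.77, they were Slurp1 (0.70), a secreted Ly6 family protein, Cilp2 (0.77) and Sfrp5 (0.78). For Cilp2, with an SD of 1.00, they were Timp2 (0.30), Casr, the calcium-sensing receptor (0.30), and Chst5, a carbohydrate sulfotransferase (0.31). For Matn4, with an SD of 0.62, they were Svep1, an extracellular adhesion protein (0.21), Plaur, the urokinase receptor (0.23), and Galnt3, which starts O-linked glycosylation (0.26). The genotype difference itself sets much of this likeness, as the log2 differences were -2.12 for Slurp1, -1.62 for Timp2, -1.74 for Casr and 0.75 for Svep1.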

How the data were processed

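RNA of 12 sternal cartilages was hybridised to 1 array each. The authors made the deposited log2 values by RMA in Partek (version 6.6, per the submitters' processing notes). RMA corrects background, quantile-normalizes and summarizes probes, so a change shared by most genes would not be seen. No source used here gives the genome build of the array annotation. Of 41345 probe sets, 23521 carried 1 gene name in the platform annotation and gave the genes, 1820 carried more, and 16004 are unnamed here.

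From the log2 values, genotypes were compared in limma 3.58.1 (R 4.3.3; lmFit, eBayes, genotype only, 10 residual and 2.93 prior degrees of freedom), with Benjamini-Hochberg adjustment over all probe sets. Exact permutation tests were 2-sided. Arrays have no read depth, and 6 mice per genotype limit the precision. The scripts were tested on simulated data.

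The members and lists were chosen with earlier results of these data known. Named genes were the members, the Timp genes, Xist and Eif2s3y, up to 4 called genes per list (or the 2 largest differences), and the 3 nearest genes of each called member. Cell type markers were counted by list. Col2a1, Acan, Krt1, Krt10 and Krt14 were named outside this rule, after their values were seen, to check the tissue. Alternatives changed the normalization, filter, variance model, thresholds, covariates, replicate block and mice. Promoter windows came from RefSeq, where 7 members matched. Replicates are mice numbered by the labels. No label says that mice with the same replicate number are a pair, and the main fit did not pair them.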

Additional observations from a re-analysis of the deposited data

Results flagged for a closer look

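Matn3 in QT replicate 1 read 10.9, below the other 5 QT mice (11.29 to 11.45), a gap of 0.709 of the group's whole range. This was the only 1 of 20 tests (10 genes in 2 genotypes) beyond Dixon's 95% limit for 6 samples, and chance gives about 1 in 20. QT replicate 1 was also the lowest QT mouse in 5 other members, each within that limit.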

How the results depend on the processing

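Each of the 10 differences was refitted under 29 alternatives. Cilp and Cilp2 were called lower in 28 of 29 and Matn4 higher in 27 of 29. The 29 are not independent tests, as 12 leave out 1 mouse each and several changed only the adjusted p. Dropping the fold threshold could only add calls. With the adipocyte mean as a covariate 0 members were called lower and 0 higher, and with the muscle mean 0 were called higher. Without a fold threshold 4 were called lower, as Comp and Snorc were added. Matn3 turned to -0.16 with the adipocyte mean, and ranged over -0.009 (without WT replicate 1) to 0.217 with 1 mouse left out. With each mouse left out in turn, 2 members stayed called lower and 1 higher, with ranges of -3.41 to -2.92 for Cilp, -1.93 to -1.64 for Cilp2 and 0.95 to 1.16 for Matn4. Same-numbered mice did not deviate together (r -0.213 to -0.0084, 0 of 6 over 0.1), and with the replicate block the adjusted p was 0.0114 for Cilp, 0.0161 for Cilp2 and 0.042 for Matn4, so the counts stayed at 2 and 1. The cause of the changes was not tested. Arrays give no depth, values near the array maximum or median may understate a difference, and tissue makeup and genotype cannot be fully told apart in 12 mice. With the Y-linked mean as a covariate, Cilp (-3.43), Cilp2 (-1.84) and Matn4 (1.25) were called.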
